A study of Sus scrofa with 6 samples.

Results

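The muscle microRNAs miR-1, miR-206 and miR-133 were examined in the left atrium (LA) of pigs after burst pacing of the right atrium. The members were taken by probe name, as ssc-miR-1, ssc-miR-206 and every probe beginning ssc-miR-133 (ssc-miR-133a-3p, ssc-miR-133a-5p and ssc-miR-133b), which gave 5 of the 322 pig miRNA probes on the array. The prefix ssc, for Sus scrofa, is left out below. The 3 PAF (paroxysmal atrial fibrillation) animals, called paced here, had received bursts of rapid stimulation through a catheter and were killed on the following day. The 3 sham-control animals were sham-operated and received no burst pacing. No animal carried a transgene or a gene deletion. The methods describe Large White pigs of 3 months, whereas the labels describe neonatal piglets, so their age is not settled by these sources. The methods give the paced animals a beta blocker, esmolol, before pacing and do not say whether the sham animals received it, so that drug and pacing cannot be told apart here. Total RNA of each animal went onto 1 array, and the RNA comes from whole tissue, in which fewer cells of a type and less RNA per cell cannot be told apart.

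A miRNA is a short RNA that lowers the output of messenger RNAs it pairs with, mainly through its seed, bases 2 to 8 from the 5′ end. miR-1 and miR-133a are made from shared precursor transcripts in heart and skeletal muscle under the control of muscle transcription factors, and miR-206 and miR-133b form a similar pair known mostly from skeletal muscle. In the heart miR-1 is known to repress the gap junction protein connexin 43 and the potassium channel subunit Kir2.1, both of which shape conduction, and miR-133 is known to repress serum response factor and connective tissue growth factor. In the Sscrofa11.1 gene table, MIR1 and MIR133A-1 are next to each other, and so are MIR206 and MIR133B. A further gene, MIR133A-2, overlaps MIB1, and the array cannot tell which of both miR-133a genes a mature molecule came from.

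The target sequences listed for the 5 probes are shown because their likeness decides which signals can be separated. They are written 5′ to 3′ with the seed in capitals.
ssc-miR-1: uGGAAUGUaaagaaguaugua
ssc-miR-206: uGGAAUGUaaggaaguguguga
ssc-miR-133a-3p: uUGGUCCCcuucaaccagcug
ssc-miR-133b: uUUGGUCCccuucaaccagcuau
ssc-miR-133a-5p: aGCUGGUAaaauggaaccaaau
miR-1 and miR-206 share the seed GGAAUGU, which only these 2 of the 322 target sequences have. With positions counted from the 5′ end of miR-1, they differ by A11G, A17G and A21G within 21 aligned bases, the base of miR-1 standing first, and miR-206 has 1 more base at its 3′ end. The target listed for miR-133a-3p begins 1 base later than that of miR-133b, so that their seeds are shifted copies, UGGUCCC and UUGGUCC. Over 21 aligned bases they differ by G21A, counted from the 5′ end of miR-133a-3p, and miR-133b has 1 more base at each end. miR-133a-5p is the opposite arm of the miR-133a hairpin and shares its seed GCUGGUA with no other probe.

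Each array held 9 repeat spots of every probe and 786 empty spots, whose median signal was 64.7 to 214.1 scanner units on the sham arrays and 242.5 to 399 units on the paced arrays. A probe counted as well above background where its median spot was over 3 SD of the empty spots brighter than their median. This held for 104 to 175 of the 322 probes per array and for 104 probes on all 6 arrays. Paced replicate 1 had the highest empty-spot median and the fewest probes above background. No spot reached the scanner's maximum, and the brightest miRNA spot read 29842 units. The p values rest on the spread between these 6 animals. In limma the variance of each probe is drawn toward a value shared over all 322 probes, so its p values do not rest on the probe's own spread alone.

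On the scanner scale the probes of miR-1, miR-133a-3p, miR-133b and miR-133a-5p were well above background on all 6 arrays, and the probe of miR-206 on none. The same held against the 15 empty spots nearest to each spot, and with 5 SD in place of 3. The probes of miR-133a-3p and miR-133b gave the 2 highest miRNA signals of every array. Since probes differ in how well they bind, this ranks signals and not amounts of RNA. Of the other heart muscle miRNAs, miR-499-5p was also above background on all 6 arrays and miR-208b on 5 of them.

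**Figure D1:**
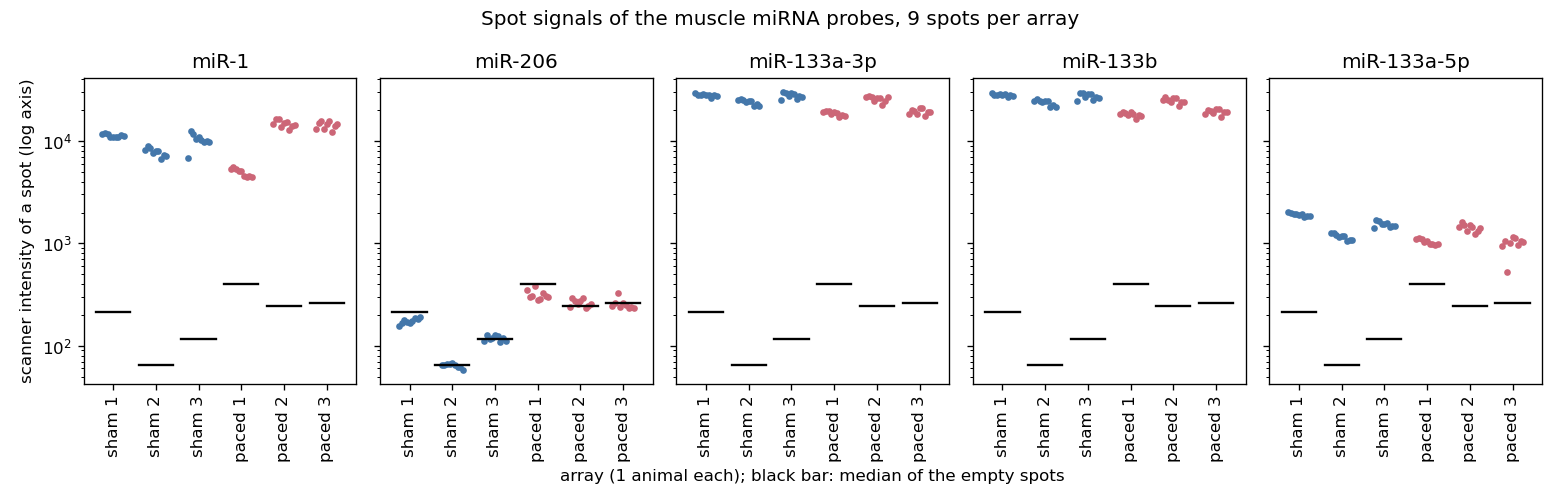
Scanner intensity (log axis) of the 9 repeat spots of each member on each of the 6 arrays, blue for sham and red for paced animals, with the median of the empty spots of that array as a black bar. The miR-206 spots sit near the black bars, and below them in sham replicate 1 and paced replicate 1, the 4 other members lie above them, and the miR-1 spots of paced replicate 1 lie below those of the other arrays.

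miR-1 differed more between the paced animals than between the paced and sham groups. The median of its 9 spots was 11294.5, 7884 and 10319 scanner units in sham replicates 1, 2 and 3, and 5037, 14589 and 14496 units in paced replicates 1, 2 and 3. Before any normalization, the spots of paced replicate 1 ranged from 4462 to 5604 units, below the lowest miR-1 spot of the sham arrays at 6665 units. The spots of paced replicates 2 and 3 ranged from 12116 to 16506 units and overlapped only the upper end of the sham spots, which reached 12450 units. Repeat spots of 1 array had a coefficient of variation from 3.37% to 15.1%, highest in sham replicate 3.

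After background correction and quantile normalization, the log2 values of miR-1 were 12.97, 12.96 and 13.20 in sham replicates 1, 2 and 3, and 12.62, 13.70 and 13.93 in the paced replicates. Paced replicate 1 lay below all sham animals and paced replicates 2 and 3 lay above them, so that the groups overlapped. The range over the 6 animals was 1.30 on the log2 scale, or 2.47-fold between the highest and the lowest animal. In the processed values that the authors deposited, which have a linear scale, miR-1 read 7978, 8102 and 9477 in the sham animals and 6121, 13663 and 15325 in the paced animals. The order of the paced animals and their place around the sham animals were alike on both sets of values, with a range of 2.50-fold in the processed ones.

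The group difference of miR-1 was 0.37 on the log2 scale (SE 0.32, limma, unadjusted p = 0.284, adjusted p = 0.725), with a 95% interval from -0.39 to 1.14. In fold terms the interval ran from 0.762 to 2.21, so neither no difference nor a doubling lay outside it. The size rested on single paced animals, since it was 0.12 without paced replicate 3 (limma, adjusted p = 0.985) and 0.23 without paced replicate 2 (adjusted p = 0.843). Without paced replicate 1 the difference was 0.75 (SE 0.11, limma over 5 arrays, adjusted p = 0.0150), and both remaining paced animals lay above the 3 sham animals. In that fit 9 of 322 probes (2.80%) passed the adjusted threshold of 0.05 in either direction and 8 (2.48%) were higher in paced animals, while 56 probes (17.4%) had both paced values above all sham values. Of the 8 probes, 2 were well above background on all 6 arrays, miR-1 and miR-148a-3p. That criterion includes the array left out of the fit. miR-29b, also among the 8, was well above background on the 3 sham and on 2 paced arrays. Only leaving out this animal, which is 1 of the 6 leave-one-out fits, took miR-1 past the threshold. The call without paced replicate 1 was lost in the authors' processed values, at a difference of 0.77 (limma, adjusted p = 0.140), without normalization between arrays (0.57, adjusted p = 0.791), with arrays scaled to their 5S rRNA spots (0.60, adjusted p = 0.370) and with plain subtraction of the empty-spot median (0.76, adjusted p = 0.0616). Its array had the highest empty-spot signal and the fewest probes above background, as given above, and their part in the low miR-1 value was not tested.

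**Figure D2:**
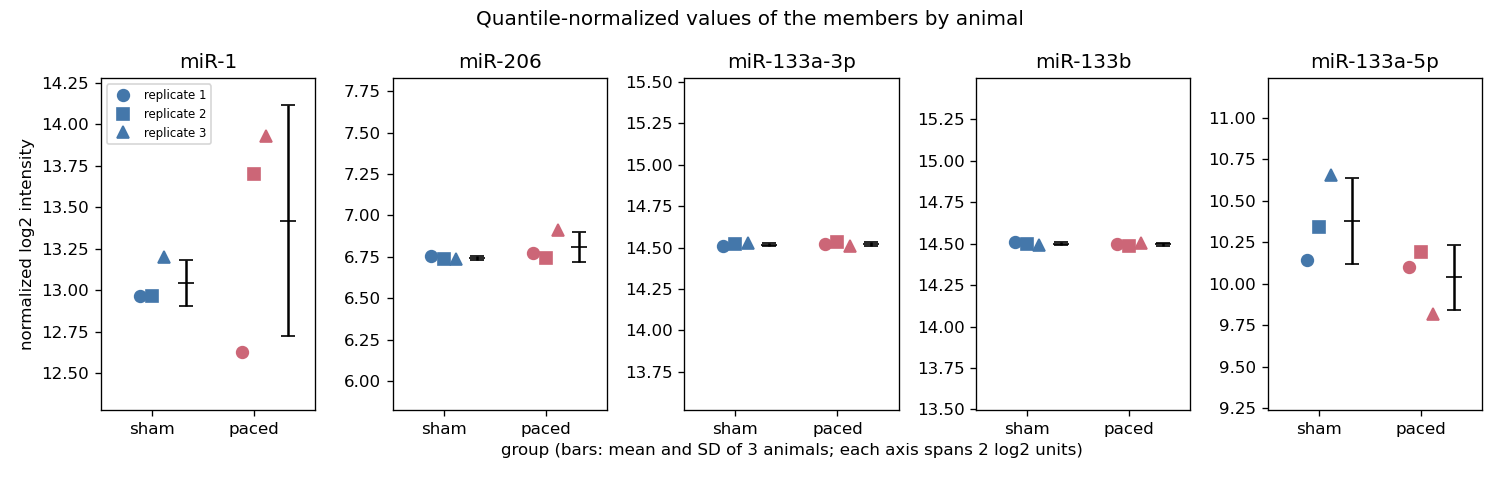
Normalized log2 intensity of each member in the 3 sham (blue) and 3 paced (red) animals, with the marker shape giving the replicate and black bars the mean and SD; each vertical axis spans 2 log2 units. For miR-1 the paced animals lie at 12.62, 13.70 and 13.93 around the sham values, the values of miR-133a-3p and miR-133b are nearly flat after quantile normalization, and the groups overlap for all 5 members.

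miR-206, which shares the seed of miR-1 and is known mainly from skeletal muscle, had no signal above background in the LA. The median of its spots was 175, 65.3 and 119 units in the sham replicates, where the empty spots read 214.1, 64.7 and 117 units. In the paced replicates it was 304, 256 and 245 units beside empty-spot medians of 399, 242.5 and 261 units. The probe read near or below the empty spots of its array, and did so where the median miR-1 spot read 5037 units or more, although both targets differ at only 3 of 21 aligned positions. The mean log2 value was 6.74 (SD 0.01) in the 3 sham and 6.81 (SD 0.09) in the 3 paced animals, with a difference of 0.07 (SE 0.07, limma, adjusted p = 0.760). No fold is given, since both groups were below the background criterion. With the median of the detected probes set equal on all arrays the difference was 0.63 (SE 0.19, the same for every member, limma, adjusted p = 0.00378). That setting moved the median difference of all probes to 0.44, and 171 of the 322 probes (53.1%) passed the threshold under it.

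miR-133a-3p and miR-133b gave nearly the same signal within each array. The median of the miR-133a-3p spots was 28025, 24369 and 27558 units in sham replicates 1, 2 and 3 and 18637, 26501 and 19323 units in the paced replicates. For miR-133b it was 27969, 24325 and 26898 units in the sham replicates and 18515, 25101 and 19357 units in the paced replicates. On this unnormalized scale paced replicates 1 and 3 were lower than the sham animals for both probes, while paced replicate 2 lay among them. From the mean log2 values of the background-corrected spots, in place of these medians, the log2 ratio of miR-133b to miR-133a-3p was 0.00, -0.01 and -0.02 in the sham replicates and -0.03, -0.05 and 0.00 in the paced replicates, at most 1.04-fold in size on any array. Their targets differ by 1 substitution over 21 aligned bases, and whether each probe also bound the other RNA was not tested. The 2 readings are therefore not taken as separate measurements of miR-133a and miR-133b.

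Quantile normalization set the miR-133a-3p value to 14.52 in both groups, with an SD of 0.0094 over the 3 sham and 0.011 over the 3 paced animals. That of miR-133b was 14.50 in both groups, with the same SDs. This step gives the brightest spots of every array the same values, so it holds these probes in place and fixes their sum. Their differences mirrored each other, at 0.0041 and -0.0041 (limma, adjusted p = 0.986 for both), and carry no information on whether the level moved. In the authors' processed values miR-133a-3p read 20888, 24875 and 24909 in the sham and 23089, 24461 and 21273 in the paced animals. The groups overlapped there, with a log2 difference of -0.036 (limma, adjusted p = 0.919, 95% interval -0.35 to 0.28). Without normalization the difference was -0.34 (SE 0.33, limma, adjusted p = 0.621, 95% interval -1.002 to 0.31). limma gave every member that SE in this setting.

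miR-133a-5p, the arm of the miR-133a hairpin that is usually the less abundant one, had lower mean values in the paced group without passing the test. Its spot medians were 1914, 1175 and 1554 units in the sham replicates and 1023, 1446 and 1028 units in the paced replicates. The normalized log2 values were 10.14, 10.34 and 10.66 in sham and 10.10, 10.19 and 9.82 in paced replicates 1, 2 and 3. Paced replicate 2 lay just above sham replicate 1, and the other paced animals lay below all sham animals. The difference was -0.34 (SE 0.16, limma, unadjusted p = 0.0651, adjusted p = 0.470), with a 95% interval from -0.71 to 0.03. It was -0.20 without sham replicate 3 and -0.22 without paced replicate 3, and it passed the threshold in 0 of the 6 fits that left out 1 animal. In the authors' processed values, 1112, 1184 and 1471 in sham and 1038, 1061 and 751 in paced animals, the groups did not overlap, as for 53 of 322 probes (16.5%), at a log2 difference of -0.41 (limma, adjusted p = 0.531). With the median of the detected probes set equal on all arrays it was -0.45, the groups did not overlap, and the difference passed the threshold (limma, adjusted p = 0.0351). There limma gave every member the same SE of 0.19, so this p value does not rest on the spread of miR-133a-5p itself. Under that setting 171 of 322 probes (53.1%) passed and 190 (59.0%) did not overlap, with a median difference of 0.44 over all probes. One spot of paced replicate 3 read 522 units against a median of 1028, and with the median of the spots in place of the mean the difference was -0.30.

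Over the family, 0 of the 5 members passed the adjusted threshold of 0.05 in limma, as did 0 of all 322 probes (0%). At an unadjusted p of 0.05 the count was also 0 of 5 members, beside 34 of 322 probes (10.6%), of which 11 (3.42%) were higher and 23 (7.14%) lower in paced animals. Paced and sham values overlapped for all 5 members. Among all 322 probes, 56 (17.4%) had no overlap, as did 5 (4.81%) of the 104 probes that every array detected. The overlap carries little information for miR-133a-3p and miR-133b, held in place by the normalization, and for miR-206, at background. Measured differences were above 0 for miR-1 and miR-206 and below 0 for miR-133a-5p, against a median of 0.0031 over all probes. Those of miR-133a-3p and miR-133b were held near 0 by the normalization, which fixes their sum.

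Ratios between members on 1 array do not depend on how arrays are scaled to each other, and 4 of them were compared. The log2 ratio of miR-1 to miR-133a-3p was -1.31, -1.62 and -1.45 in the sham replicates and -1.96, -0.81 and -0.46 in the paced replicates. The ratio lay below all sham animals in paced replicate 1 and above them in the other paced animals. Its denominator is not taken as separate from miR-133b, so it is not read as a ratio of products of shared precursor transcripts alone. The SD of this ratio was 0.15 in sham and 0.78 in paced animals (n = 3 in each). The difference in means was 0.39 (exact permutation test, two-sided, p = 0.5, adjusted over the 4 ratios p = 0.5). It was 0.077 without paced replicate 3 and 0.83 without paced replicate 1, the extremes over the 6 animals left out in turn. A test of 3 against 3 animals cannot give a p below 0.1.

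The same limit on the denominator holds for the arms, miR-133a-5p to miR-133a-3p. Their log2 ratio was -3.90, -4.36 and -4.21 in the sham replicates and -4.44, -4.31 and -4.52 in the paced replicates. Paced replicates 1 and 3 were below all sham animals and paced replicate 2 was above sham replicate 2. The difference was -0.26 (exact permutation test, two-sided, p = 0.2, adjusted p = 0.4). It ranged from -0.36 without sham replicate 2 to -0.14 without sham replicate 1, and it was -0.081 without background correction and -0.43 with plain subtraction of the empty-spot median. For miR-133b to miR-133a-3p the difference was -0.017 (exact permutation test, two-sided, p = 0.4, adjusted p = 0.5), and it ranged from -0.029 without paced replicate 3 to -0.0038 without paced replicate 2. The ratio of miR-206 to miR-133b had a mean of -8.14 (SD 0.44) in the sham group and -7.31 (SD 0.23) in the paced group (exact permutation test, two-sided, p = 0.1, adjusted p = 0.4). Its numerator was at the background on every array, and all paced arrays had higher empty-spot signals than all sham arrays, so it is not read as a change in miR-206.

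**Figure D3:**
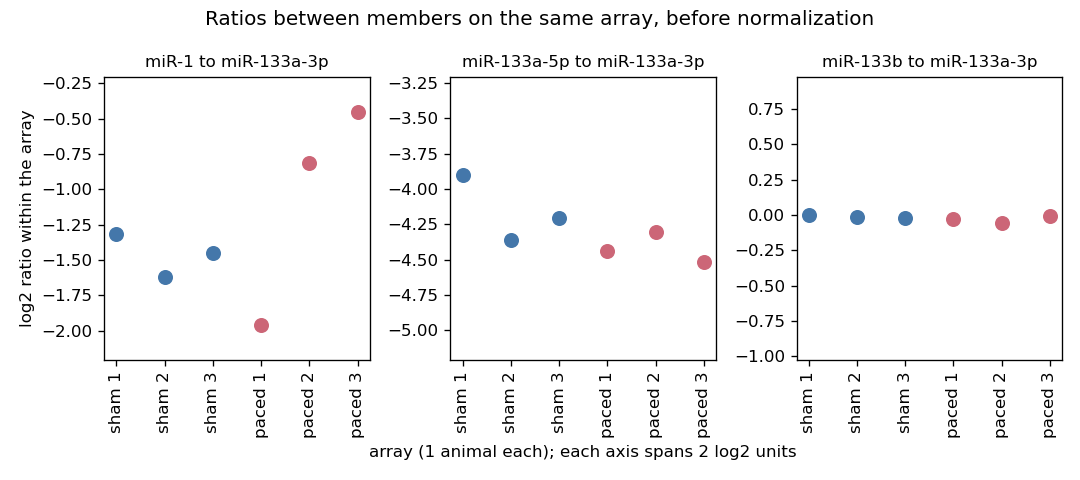
Log2 ratio between 2 members on the same array, before normalization between arrays, for the 3 ratios whose members were above background; points are single animals, blue for sham and red for paced, and each axis spans 2 log2 units. The ratio of miR-1 to miR-133a-3p runs from -1.96 to -0.46 among the paced animals, and that of miR-133b to miR-133a-3p lies between -0.05 and 0.00 on all arrays.

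The scaling between arrays changed the level from which the family was read. Under quantile normalization, cyclic loess and in the authors' processed values, the difference of miR-1 was 0.37, 0.37 and 0.36. When arrays were brought to a common median of detected probes, to a common 5S rRNA signal, or left unscaled, it was 0.21, 0.20 and 0.042. These last 3 settings shift all probes of an array alike, so differences between members are equal in them by construction. Within each of these settings limma also gave all members the same SE, which is not the spread of the single member. The median difference of all 322 probes was 0.44, 0.43 and 0.27 in them, and relative to this median probe miR-1 was at -0.23, miR-133a-3p at -0.62, miR-133b at -0.63 and miR-133a-5p at -0.88. The median signal of the miRNA probes was 102 to 250 units on the sham and 293 to 370 units on the paced arrays. Empty spots had medians of 64.7 to 214.1 and 242.5 to 399 units, so the median probe was close to background. On paced replicate 1 it read 370 units, below that array's empty-spot median of 399. Values relative to it are therefore not read as changes against other miRNAs. Set against the detected probes' median, miR-1 was at 0.21. Against the median of all probes it was at 0.37 under quantile normalization, 0.36 under cyclic loess and 0.40 in the authors' processed values. The own difference of miR-1 was above 0 under each of these scalings. It was negative only against the near-background median probe, in the 3 settings that shift all probes of an array alike. With 5S rRNA scaling the paced values of miR-133b lay below all sham values, a lack of overlap shared by 84 of 322 probes (26.1%), at a difference of -0.21 (limma, adjusted p = 0.631).

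**Figure D4:**
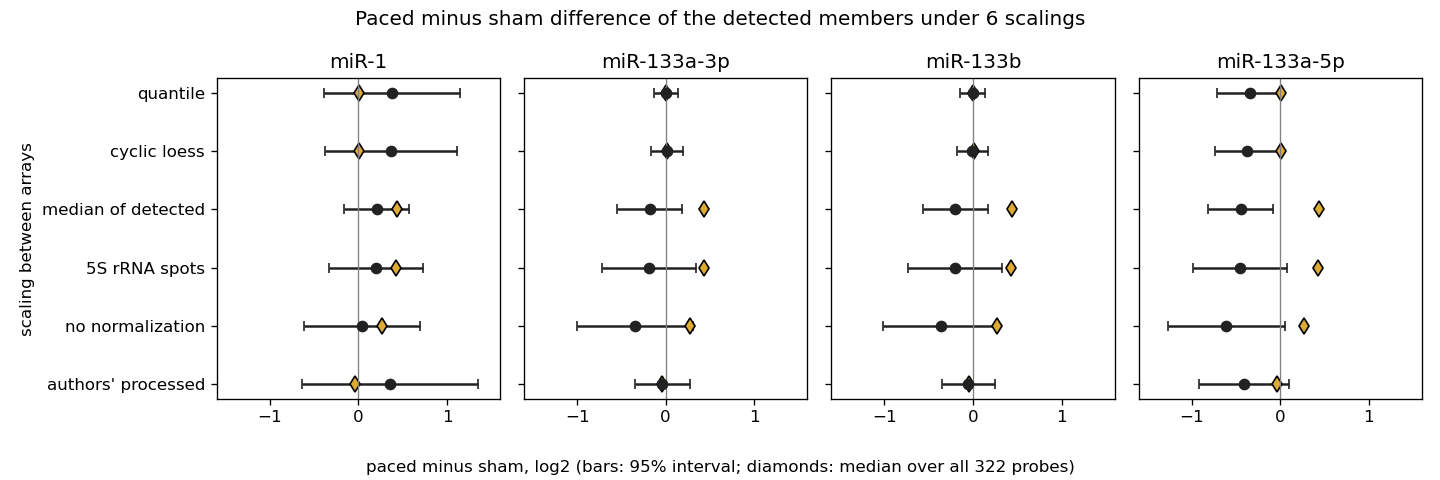
Paced minus sham difference on the log2 scale for the 4 detected members under 6 scalings between arrays, with 95% intervals from limma as bars and the median difference over all 322 probes as diamonds. The interval of miR-1 includes 0 under each scaling, and the diamonds move to between 0.27 and 0.44 under 3 of them. In those 3 scalings limma gave all 4 members the same SE, so the bars there do not show the spread of each member. The median probe is close to background, so the diamonds are no reference for the detected members.

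miR-1 had the widest spread of the 104 probes detected on every array under the main processing. Probes detected on fewer arrays were not ranked. The SD within groups, pooled over paced and sham animals, was 0.50 on the log2 scale, and the other 103 of the 104 probes detected on every array had a smaller one. Their median SD was 0.16. Without paced replicate 1 the SD of miR-1 fell to 0.14, at percentile 57.2 among the same probes, so this rank rested on that animal. For comparison, the median SD over repeat spots of an array was 0.14 for miR-1, which gives the mean of 9 spots an error of 0.047. The SD of miR-133a-5p was 0.23, at percentile 74.5. That of miR-133a-3p was 0.010 and is set by the normalization, since it was 0.16 with scaling to the 5S rRNA spots and 0.31 with a common median of detected probes.

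The probes with the profile most like that of each member over the 6 arrays were picked by rule. Likeness was measured as the root mean square difference of log2 values centred over the 6 arrays, among the 103 other probes detected on every array. The nearest was miR-148a-3p, at 0.17, followed by miR-186 at 0.24 and miR-30e-3p at 0.25, while the median over the 103 probes was 0.51. For miR-148a-3p the centred values were -0.36 in paced replicate 1 and 0.49 and 0.59 in paced replicates 2 and 3, beside -0.61, 0.47 and 0.70 for miR-1. Since the neighbours were picked for this likeness, their pattern is a description. The nearest probes of miR-133a-5p were miR-218b, miR-30e-5p and miR-30d, at 0.17, 0.18 and 0.18, beside a median of 0.28. Those of miR-133a-3p were miR-133b, miR-125b and miR-26a, at 0.017, 0.022 and 0.042, beside a median of 0.15. Quantile normalization left miR-133a-3p and miR-133b a range of only 0.026 over the 6 arrays, so any probe that varies little is near them on this measure. miR-133b had miR-125b, miR-133a-3p and miR-26a nearest, at 0.016, 0.017 and 0.040.

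**Figure D5:**
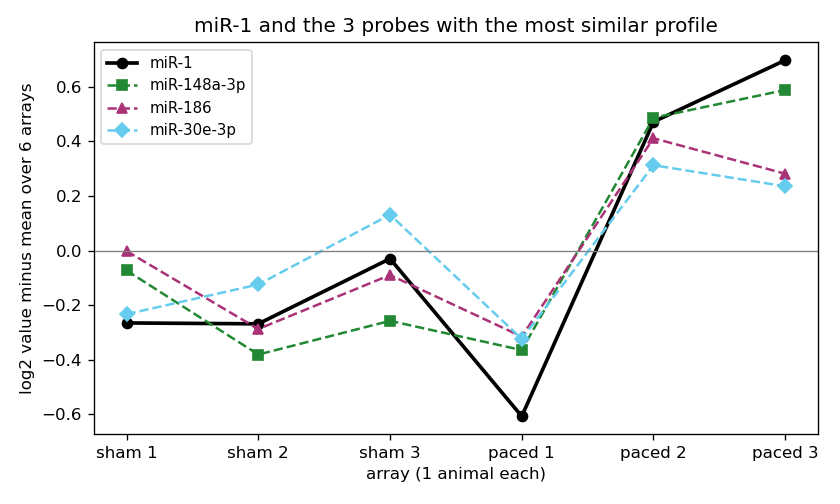
Log2 value minus its mean over the 6 arrays for miR-1 (black) and the 3 detected probes with the most similar profile; lines only join the points of a probe, since animals have no order. In paced replicate 1 the 4 probes lie between -0.61 and -0.31, and in paced replicates 2 and 3 between 0.24 and 0.70.

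Of 5 other muscle miRNA probes, which cover miR-208b, miR-378, miR-486 and both arms of miR-499, 0 passed the adjusted threshold in limma in either direction. miR-208b and miR-499 are encoded within myosin heavy chain genes. The log2 values of miR-499-5p were 12.19, 11.97 and 12.21 in sham and 11.86, 12.62 and 12.40 in paced replicates 1, 2 and 3. Those of miR-208b were 8.14, 8.56 and 8.74 in sham and 7.83, 9.15 and 8.25 in the paced replicates. For both, paced replicate 1 was the lowest animal and paced replicate 2 the highest. The array of paced replicate 1 was the one on which miR-208b was not above background, so its value there is only a bound. The differences were 0.17 for miR-499-5p (SE 0.19, limma, adjusted p = 0.778) and -0.07 for miR-208b (SE 0.33, adjusted p = 0.943). miR-486, which erythroid cells also express, had the largest difference of the list at -0.70 (SE 0.16, limma, adjusted p = 0.134), without overlap of the groups, and it too was not above background in paced replicate 1. That of miR-378 was -0.14 (SE 0.10, limma, adjusted p = 0.661), and miR-499-3p was not above background on any array.

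Summed over the list of 3 heart muscle probes, the normalized linear intensity was 4520 to 5287 in the sham animals, and 4079, 7000 and 5809 in paced replicates 1, 2 and 3. One of the 3 probes was above background on all arrays. For the erythroid list of miR-451, miR-144 and miR-486, with 1 of 3 above background on all arrays and miR-144 on none, the sum was 12198 to 17089 in sham and 8241 to 12293 in paced animals. The fibroblast list, with all 5 probes above background, summed to 22785 to 24932 in sham and 21113 to 26154 in paced animals, where paced replicate 1 was highest. The smooth muscle list, with 2 of 3 probes above background, gave 19147 to 22886 in sham and 17042 to 18958 in paced animals. These sums did not overlap, while those of the other cell type lists did. Of its probes, miR-143-3p had no overlap, as for 56 of 322 probes (17.4%), at a difference of -0.32 (limma, adjusted p = 0.323). The endothelial list gave 8345 to 9986 and 8110 to 9397 with 1 of 2 probes, and the leukocyte list 1162 to 1447 and 1161 to 1522 with 1 of 4 probes, since 4 of its 5 markers were matched to a probe. The share of heart muscle and other cells in each piece of LA tissue, and its part in the miR-1 values, was not tested.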

How the data were processed

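LA RNA of 3 paced and 3 sham pigs was measured on 1-colour (Cy3) miRNA arrays, 1 per animal, grouped by the sample titles. The authors deposited the median intensity of every spot on a linear scale, background included and not normalized, from a GenePix scanner and Array-Pro. They also deposited processed intensity values, 1 per probe and array, whose background removal and normalization are not given in the sources used here. The sources name no slide or scan batch.

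Scanner values of all spots were corrected with normexp (offset 50), control spots were left out, and miRNA spots were quantile-normalized, log2-transformed and averaged over repeats (R 4.3.3, limma 3.58.1). limma (lmFit, eBayes) was fitted over all 322 probes with Benjamini-Hochberg adjustment. Within-array ratios used the values before normalization and an exact permutation test. The alternatives were 4 background settings, 4 scalings, the processed values with a floor of 1, the median of repeats, the methods' t-test in addition, a trended robust fit, a filter on dim probes, the replicate block and each animal left out. Named probes were the members, probes sharing a seed, the 3 with the nearest profile and 5 other muscle miRNAs. Other names follow from calls seen in the data. Members and lists were chosen with earlier results of these data known. The processing was run on simulated data in which only bright probes were changed, with less spread between arrays than miR-1 had. That run does not bear on miR-206 or on a spread as wide as that of miR-1. The number of arrays limits the precision.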

Additional observations from a re-analysis of the deposited data

How the results depend on the processing

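Of the 5 members, miR-1 and miR-133a-5p kept the direction of their own difference between groups, not set against other probes, under all alternatives run. miR-133a-3p turned negative with scaling to the median of detected probes (-0.18), to 5S rRNA spots (-0.19), without normalization (-0.34) and in the authors' processed values (-0.036, and -616 linear units in the methods' t-test), where quantile normalization no longer holds it in place. miR-133b was at 0.0044 with the median of repeat spots. miR-206, never above background, was at -0.0063 against the nearest empty spots and at -0.027 with the median of repeat spots. Scaling to the median of detected probes took miR-133a-5p (-0.45) and miR-206 (0.63) past the adjusted threshold, so that 2 members and 171 probes passed it, and 8 probes did so with scaling to 5S rRNA spots. With 1 animal left out, the difference ranged from 0.12 to 0.75 for miR-1, from -0.48 to -0.20 for miR-133a-5p, from -0.00080 to 0.0087 for miR-133a-3p, from -0.0087 to 0.00080 for miR-133b and from 0.015 to 0.098 for miR-206. The count past the threshold then ranged from 0 to 1 member and from 0 to 9 probes, the highest without paced replicate 1. As an alternative chosen after seeing the data, miR-1 without paced replicate 1 was refitted under each background setting and scaling. It stayed positive and lost its call with plain subtraction (0.76), with 5S rRNA scaling (0.60), without normalization (0.57) and in the authors' processed values (0.77). Where no cause is named above, the cause was not tested. All ratio differences kept their sign. At the methods' own threshold, an unadjusted p of at most 0.05, the methods' t-test (equal variance) passed 0 members and 39 probes on the log2 values and 0 members and 29 probes on the processed values, and 0 probes on either after Benjamini-Hochberg adjustment. Same-numbered animals deviated together with r = 0.17, -0.01 and 0.21 across 104 probes, which are not independent. Animals with different numbers were not correlated for comparison, so this does not settle whether the numbers pair them. With the replicate block miR-1 was at 0.37 (limma, adjusted p = 0.575), and 0 members passed. The filter on dim probes gave no value for miR-206. Dim signal over background limits miR-206, and the brightest probes are limited by quantile normalization.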
